A study of Homo sapiens with 12 samples.

Results

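The line-dependent knockdown response is the part of the answer to a KDM3A knockdown that differed between the cell lines SW780 and A549. All 12 arrays of the series entered it, because every gene was scored as the change in SW780 minus the change in A549, where a change is siKDM3A minus the mean of the siEGFP and siFFluc groups of the same line. Of 14057 genes tested, 392 (2.79%) had a difference past an adjusted p of 0.05, and these are called line-dependent here. The SW780 change lay above the A549 change for 253 of them (1.8% of all genes tested) and below it for 139 (0.989%).

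A549 is a lung adenocarcinoma line, which the labels place in RPMI1640, and SW780 is a bladder carcinoma line, placed in Leibovitz's L-15. Both media held 10% serum and 1% antibiotic at 37 °C, and the labels do not say which line was kept with CO2. Each line was transfected with siEGFP, siFFluc or siKDM3A duplexes at 100 nM using Lipofectamine 2000 for 24 h, and each of the 6 groups holds 2 Affymetrix U133 Plus 2.0 arrays. Each tissue of origin is represented by a single line, so tissue, medium and line cannot be told apart. Nothing in the labels says that the arrays of a group came from separate cultures, so p-values reflect only how far paired arrays scattered, possibly for technical reasons alone.

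KDM3A is a histone demethylase that removes methyl groups from lysine 9 of histone H3, a mark of silenced chromatin. The genes with the smallest p-values for the difference between the lines belong to the interferon response, in which a complex that holds IRF9 binds a short promoter element and switches on genes whose products degrade viral RNA, block its translation or trap viral particles. A second set belongs to NF-kB signalling, in which receptors for interleukin-1, TNF or microbial products release a transcription factor that drives cytokines, chemokines and prostaglandin synthesis.

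The values are MAS5 signals, an intensity in arbitrary units with the same trimmed mean on every array. Median signal ran from 50.3 to 59.1, with both A549 siKDM3A arrays (51.9 and 53.1) under the A549 controls (57.4 to 59.1) and both SW780 siKDM3A arrays (54.3 and 58.1) above the SW780 controls (50.3 to 54.2). The actin 3' to 5' ratio, a sign of RNA quality, was 1.51 and 1.61 on the SW780 siKDM3A arrays against 1.39 to 1.44 on their controls, and 1.16 and 1.19 on the A549 siKDM3A arrays against 1.20 to 1.29. The part of the actin ratio in the results below was not tested. Scaling by the median shifted the median difference over all genes from 0.04 to -0.21, and the line-dependent genes then numbered 116 above and 1825 below. Of the 392 genes, 241 were still called in the same direction after that scaling (102 of the 253 above and 139 of the 139 below). The shift enlarges differences below and shrinks those above, so this contrast is largely built in. Summed signals of 16 urothelial markers were 84996 to 110199 on SW780 control arrays and 30101 to 34080 on A549 control arrays. The 8 of 16 lung epithelial markers that passed the filter on dim probe sets did not set A549 apart (3561 to 4224 against 4670 to 4818 in SW780), and the defining surfactant gene SFTPB stood at only 183 ± 21.3 in A549. None of the 4 leukocyte and 7 fibroblast and endothelial markers that passed the filter was line-dependent, beside 2.79% of all genes tested. The 4 leukocyte markers had summed signals of 170.2 to 386 over all 12 arrays.

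The targeted transcript was lower in both lines. In A549, KDM3A read 1299.7 and 1307 with siEGFP, 1519 and 1437 with siFFluc, and 692 and 712 with siKDM3A. In SW780 it read 409.8 and 373 with siEGFP, 359 and 433 with siFFluc, and 197 and 223 with siKDM3A. The siKDM3A arrays lay below all controls in each line, the change was -0.97 ± 0.10 in A549 and -0.86 ± 0.10 in SW780 on the log2(signal + 16) scale (estimate ± SE, as for all changes below), and the difference was 0.11 ± 0.15, adjusted p = 0.743. Its 95% interval ran from -0.21 to 0.42, which does not show equal knockdown, and median scaling turned its sign (-0.14, adjusted p = 0.606). KDM3A stood at 1391 ± 106 in A549 controls and 394 ± 33.6 in SW780 controls (mean ± SD of 4 control arrays, as below, with 2 siKDM3A arrays).

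Sorted by the change within each line, 105 line-dependent genes rose in SW780 only, 63 fell in SW780 only, 54 rose in A549 only and 94 fell in A549 only. The response of the other line was less well bounded for some of these: its 95% interval lay within 1.5-fold either way for 80 of the 105, 61 of the 63, 53 of the 54 and 71 of the 94, and its unadjusted p was under 0.05 for 41, 17, 12 and 33. A further 33 moved in opposite directions, 28 in the same direction by unequal amounts, and 15 passed the test in neither line alone. Within SW780, 5.73% of all genes tested rose and 6.18% fell, and within A549 5.33% rose and 6.37% fell. Of all genes tested, 2166 were called in one line only, and 85.4% of them did not pass the test of the difference itself. The called differences had a median size of 0.59 and a smallest size of 0.30, and 67 reached 2-fold or more, 59 with SW780 above A549 and 8 with it below.

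**Figure D1:**
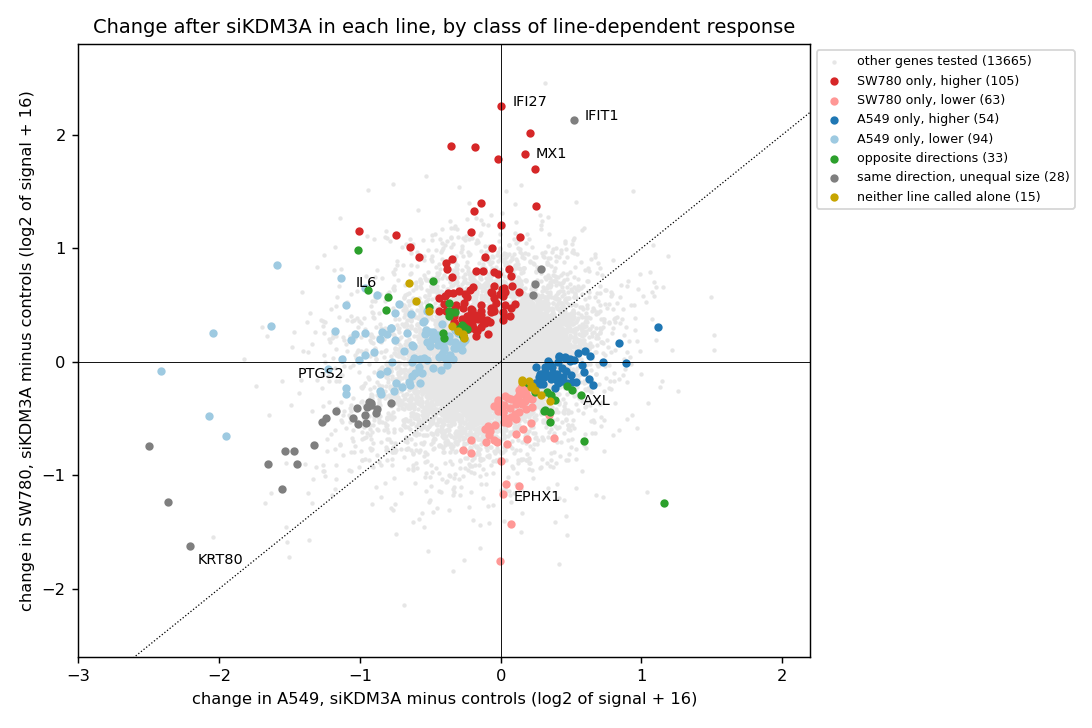
Each point is a gene, with its change after siKDM3A in A549 on the horizontal axis and in SW780 on the vertical axis, both in log2 units of signal + 16. The dotted line marks equal changes, colours mark the classes of the 392 line-dependent genes, and the highest coloured points, IFI27 and IFIT1, lie far above that line.

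The same contrast taken between the control duplexes, which tells how far siEGFP and siFFluc alone differ by line, called 3 genes (0.0213%), with 1575 at an unadjusted p under 0.05 against 2562 for siKDM3A. EREG, described below, is 1 of the 3. The control contrast has the larger SE (0.15 against 0.13 for ACAA2), so these counts are not like for like. All 392 line-dependent genes had the same sign against each control on its own. The main difference is the mean of those 2 differences and the genes were chosen by it, so like signs are largely built in. Of the 392, 73 were called against siEGFP alone, 263 against siFFluc alone and 50 against each. Both of those tests use equal numbers of arrays, fewer than the main test. Over all genes tested they called 80 and 369, and the cause of that gap was not tested. Each of the 12 arrays was also left out in turn. Such a fit leaves 1 array in a group and moves the threshold for all genes. A call lost there therefore does not show that it rests on the array left out.

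Interferon-stimulated genes held more line-dependent members than any other list examined, and those members had lower control levels in SW780, the line in which they rose. Of 43 effector genes measured, 14 were line-dependent, all with SW780 above A549, beside 1.8% of all genes in that direction, and 0 were line-dependent the other way. Within SW780, 27 rose and 1 fell, whereas within A549 5 rose and 4 fell. The median difference over the list was 0.43, against 0.04 for all genes, and 0.18 after median scaling, which set all genes at -0.21. The list was written with earlier results of these arrays known, so its count is a description.

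IFI27, a mitochondrial protein among the most strongly induced by interferon, read 55.8 and 48.5 with siEGFP, 99.8 and 101 with siFFluc, and 394 and 425 with siKDM3A in SW780. In A549 it read 5342 and 5506 with siEGFP, 5343 and 5319 with siFFluc, and 5370.2 and 5417 with siKDM3A. The SW780 siKDM3A arrays lay above every SW780 control (as for 15.4% of all genes tested), while the A549 arrays of all 3 duplexes lay within a narrow band at a far higher level. IFI27 rose by 2.26 ± 0.08, adjusted p = 5.02e-09, in SW780. Its A549 change was 0.00 ± 0.08 (95% interval -0.17 to 0.18), a difference of 2.25 ± 0.11, adjusted p = 7.68e-07. Even after the rise, the SW780 mean of 409 ± 21.9 was well under the A549 control mean of 5378 ± 86.3, and control levels differed 70.5-fold.

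IFIT1, which binds viral RNA lacking a host cap and stops its translation, rose in both lines by unequal amounts. SW780 signals were 191 and 186 with siEGFP, 256 and 298 with siFFluc, and 1077 and 1032 with siKDM3A. In A549 it read 6934 and 7068 with siEGFP, 8559 and 8480 with siFFluc, and 10949 and 11235 with siKDM3A. Groups did not overlap in either line. Its change was 2.13 ± 0.07, adjusted p = 4.38e-09, in SW780 and 0.52 ± 0.07, adjusted p = 4.13e-04, in A549, which left a difference of 1.61 ± 0.10, adjusted p = 5.19e-06.

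MX1, a GTPase that traps viral nucleocapsids, read 87.6 and 121 with siEGFP, 223 and 192 with siFFluc, and 568 and 558 with siKDM3A in SW780. Its A549 signals were 2234 and 2374 with siEGFP, 2903 and 2473 with siFFluc, and 2853 and 2756 with siKDM3A, with the siKDM3A arrays inside the control range. The difference was 1.66 ± 0.16, adjusted p = 6.53e-04. MX2, its paralog, rose from 162 ± 42.3 to 444 ± 44.6 in SW780 with a difference of 1.54 ± 0.30, adjusted p = 0.025. IFI44L, an interferon-induced gene of little-known function, was near the dim end of the scale in SW780 controls at 21.6 to 44.4 and read 168 and 159 with siKDM3A. In A549, IFI44L stood at 531 ± 43.7 in controls and 413 ± 46.7 with siKDM3A, and its difference was 2.26 ± 0.23, adjusted p = 6.53e-04.

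IRF9, the DNA-binding subunit of the complex that drives these genes, was the single line-dependent gene among 22 RNA sensors and interferon signalling genes (2.79% of all genes tested). It read 307 and 299.7 with siEGFP, 378 and 379.9 with siFFluc, and 1063 and 1216 with siKDM3A in SW780. The A549 values were 2586 and 2477 with siEGFP, 2667 and 2712 with siFFluc, and 3012 and 3162 with siKDM3A. The SW780 siKDM3A mean was 3.34 times the control mean, and in A549 the siKDM3A arrays lay above the controls by a small step that missed the threshold (0.24 ± 0.08, adjusted p = 0.0565). The difference was 1.46 ± 0.11, adjusted p = 2.62e-05, and after median scaling, IRF9 also passed in A549, so that it counted there as rising in both lines by unequal amounts. The other 21 genes of that list, which includes the cytosolic RNA receptors, were not line-dependent.

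**Figure D2:**
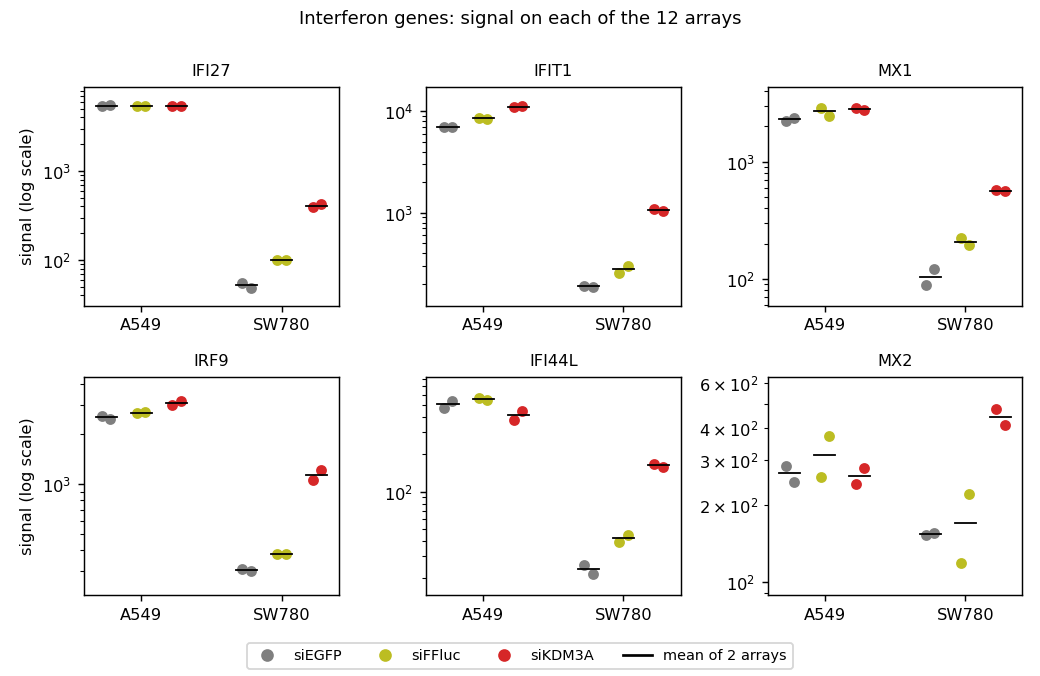
Signal on a log axis for 6 interferon genes, 1 point for each array and a bar for the mean of each pair, with A549 on the left and SW780 on the right of every panel. In SW780 the red siKDM3A points lie above the grey siEGFP and olive siFFluc points in all 6 panels, and the A549 controls lie above the SW780 controls in all 6.

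The other 9 line-dependent effectors were RSAD2 (2.08), XAF1 (1.20), OAS2 (1.12), CXCL11 (1.07), IFI6 (0.96), IFI44 (0.84), CMPK2 (0.79), OAS1 (0.71) and HERC6 (0.57), with the difference in brackets. RSAD2 encodes viperin, which makes a chain-terminating nucleotide, and CMPK2 lies next to it in the genome and supplies its substrate. OAS1 and OAS2 make the 2-5 oligoadenylates that activate RNase L. CXCL11 is a chemokine for activated T cells, and XAF1 promotes cell death. Of the 14, 12 were called in SW780 only, IFIT1 rose in both, and HERC6, an interferon-induced ubiquitin ligase homolog, rose in SW780 (0.29 ± 0.08, adjusted p = 0.0404) and fell in A549 (-0.29 ± 0.08, adjusted p = 0.0417).

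Control levels of the effectors were mostly higher in A549, in 37 of the 43 measured and at least 2-fold in 24, whether line-dependent or not. All 14 line-dependent ones had a higher control mean in A549 than in SW780, from 1.13-fold for XAF1 to 70.5-fold for IFI27, and 10 were at least 2-fold higher, beside 55.4% and 17.6% of all genes tested. In 11 of the 14 the SW780 siKDM3A mean stayed below the A549 control mean. The control duplexes were not level with each other in SW780 either: IFI27, IFIT1, MX1, IRF9 and IFI44L each read higher on both siFFluc arrays than on both siEGFP arrays, and lower there than on both siKDM3A arrays. Against siEGFP alone the IFI27 difference was 2.65, adjusted p = 6.03e-07, and against siFFluc alone it was 1.85, adjusted p = 4.80e-05. Of the 14, 7 passed against each control alone, 13 after median scaling and 5 in every fit that left out an array, and those 5 include IFI27, IFIT1, MX1 and IFI44L. The count over the list ran from 5 without A549-siKDM3A replicate 2 to 18 without SW780-siFFluc replicate 1.

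Another 13 effectors rose in SW780 without passing the test of the difference. ISG15, the ubiquitin-like modifier, rose in SW780 (0.59 ± 0.08, adjusted p = 5.16e-04) and in A549 (0.39 ± 0.08, adjusted p = 0.00622), and its difference was 0.20 ± 0.11, adjusted p = 0.373. IFIT2 and IFIT3, relatives of IFIT1, also rose in both lines, with differences of 0.42 ± 0.14, adjusted p = 0.135, and 0.41 ± 0.13, adjusted p = 0.104. The 95% intervals of these differences, 0.11 to 0.72 and 0.13 to 0.68, do not show equal responses. None of 19 genes of MHC class I presentation was line-dependent (list median -0.02), beside 2.79% of all genes tested.

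Promoter sequence from RefSeq (GRCh38.p14) was read for the members with an entry, to show where the element bound by the IRF9 complex lies in 4 of them. The motif searched was GAAA, any 2 bases and GAAA again, on both strands, in 250 bases before to 50 after the start of each gene. It occurred in 6 of 13 line-dependent interferon genes with an entry, IRF9 included (46.2%), in 25 of 35 genes of the effector list (71.4%) and in 307 of 11313 promoters of all genes tested (2.71%). Of promoters of the genes that rose in SW780 only, 7 of 89 held it (7.87%), and outside the interferon lists 2 of 78 did (2.56%). MX2 and OAS2 have no entry, and the windows of IRF9, RSAD2, XAF1, OAS1, HERC6, CMPK2 and CXCL11 do not hold these letters. A match describes letters, not a bound site. Below, capitals mark each match within 120 bases at the start of IFI27 (chr14:94110616-94110735, plus strand), IFIT1 (chr10:89392500-89392619, plus strand), IFI44L (chr1:78620328-78620447, plus strand) and IFI6 (chr1:27672193-27672312, minus strand), all written 5′ to 3′ along the gene.
IFI27: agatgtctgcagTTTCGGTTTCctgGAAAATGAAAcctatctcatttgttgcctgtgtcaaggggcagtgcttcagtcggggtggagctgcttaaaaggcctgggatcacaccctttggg
IFIT1: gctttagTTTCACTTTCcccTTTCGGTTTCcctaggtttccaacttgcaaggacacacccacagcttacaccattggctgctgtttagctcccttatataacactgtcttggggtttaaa
IFI44L: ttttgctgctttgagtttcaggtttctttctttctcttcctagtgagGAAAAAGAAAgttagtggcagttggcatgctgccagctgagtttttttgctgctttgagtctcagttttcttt
IFI6: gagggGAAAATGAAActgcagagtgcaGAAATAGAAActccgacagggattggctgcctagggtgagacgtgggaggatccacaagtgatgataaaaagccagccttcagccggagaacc

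In IFI27 and IFIT1 a pair of matches lies side by side, starting 108 and 95 bases before the gene start in IFI27 and 116 and 103 bases before it in IFIT1. IFI6 has matches at 115 and 93 bases in the stretch shown and another 156 bases before its start. IFI44L has 1 at 73 bases in the stretch and another at 164. These 4 genes carry the same kind of element and differ in the size of the response, from 0.96 for IFI6 to 2.26 for IFI44L.

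Outside the interferon response, genes that rose in SW780 only included PIP4P2, a phosphoinositide phosphatase, and ASPH, an aspartate hydroxylase of the endoplasmic reticulum. PIP4P2 read 119.9 and 122 with siEGFP, 149.7 and 126 with siFFluc, and 291 and 318 with siKDM3A in SW780 and 275 and 466 with siEGFP, 527 and 477 with siFFluc, and 322 and 410.3 with siKDM3A in A549. The SW780 siKDM3A arrays lay above their controls, as the naming rule required, and the A549 arrays overlapped. The difference was 1.36 ± 0.27, adjusted p = 0.025. ASPH had unequal controls: 4100.1 and 4064 with siEGFP, 1848 and 1316 with siFFluc, and 5009.7 and 4298 with siKDM3A in SW780, so that its difference of 1.26 ± 0.30, adjusted p = 0.0436, was 0.68, adjusted p = 0.394, against siEGFP alone. A second probe set gave 0.45, adjusted p = 0.0365.

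Some cell cycle genes were line-dependent. Of 40 mitosis genes 3 were line-dependent, MAD2L1, TOP2A and HMMR, and of 46 replication genes 5 were, all 8 with SW780 above A549 (1.8% of all genes in that direction). Leaving out 1 array gave 0 (without A549-siKDM3A replicate 2) to 7 (without SW780-siFFluc replicate 2) of the mitosis genes, and 0 (without A549-siKDM3A replicate 1) to 6 (without SW780-siFFluc replicate 1) of the replication genes. The lists had medians of -0.01 and 0.05 against 0.04 for all genes, and of -0.26 and -0.21 against -0.21 after median scaling. MAD2L1, of the spindle checkpoint, rose in SW780 from 5862 ± 823 to 9837 ± 175 and stood at 8278 ± 459.9 and 8709 ± 264 in A549 (difference 0.68 ± 0.10, adjusted p = 0.00512), although its second probe set gave 0.00, adjusted p = 0.997. TOP2A, the topoisomerase that untangles replicated chromosomes, differed by 0.34 ± 0.08, adjusted p = 0.0471, with a second probe set at 0.47, adjusted p = 0.0228, and did not pass after median scaling (0.08, adjusted p = 0.63). Of the replication genes, ORC6 (0.58 ± 0.13), RPA2 (0.42 ± 0.09) and RFC5 (0.41 ± 0.09) rose in SW780 only, and GINS3 (0.81 ± 0.14) fell in A549 only. The ORC6 difference was 0.28, adjusted p = 0.436, against siEGFP alone. POLE3 (0.53 ± 0.12) was called higher in both lines. Its A549 siKDM3A arrays, at 7116 and 6982, lay between the siEGFP arrays (6731 and 7714) and above the siFFluc arrays (4644 and 4622). ORC6, RPA2 and POLE3 lost the call after median scaling, as did the mitosis gene HMMR. XBP1, the transcription factor of the unfolded protein response, rose in SW780 from 2483 ± 109.5 to 3458 ± 66.6 and not in A549 (1389 ± 111 and 1333 ± 13.4), a difference of 0.53 ± 0.09, adjusted p = 0.0124, that was 0.28, adjusted p = 0.0941, after median scaling.

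The 63 genes that fell in SW780 only were well measured in the line that did not respond: all 63 had an A549 control mean of at least 100, and the A549 change was bounded as above for 61. EPHX1, an epoxide hydrolase of xenobiotic metabolism, read 1696 and 1751 with siEGFP, 2763 and 1960.5 with siFFluc, and 961 and 812 with siKDM3A in SW780. Its A549 arrays read 2259.6 and 2539 with siEGFP, 1956 and 2435 with siFFluc, and 2431 and 2197 with siKDM3A. Both lines had like control levels, the SW780 siKDM3A arrays lay below all controls (as for 13.3% of all genes) and the A549 groups overlapped. The naming rule for this class required that separation in SW780. EPHX1 fell by 1.17 ± 0.13 in SW780 and differed by -1.18 ± 0.18, adjusted p = 0.00718, a difference that was -0.90, adjusted p = 0.0748, against siEGFP alone.

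SMAD3, which carries TGF-beta signals to the nucleus, showed the same contrast. It read 1746 and 1427 with siEGFP, 2253 and 1956 with siFFluc, and 978 and 987 with siKDM3A in SW780. A549 gave 2135 and 2342 with siEGFP, 2262 and 2265 with siFFluc, and 2176 and 2339 with siKDM3A, with no separation between duplexes. The difference was -0.88 ± 0.13, adjusted p = 0.00483, on the brighter probe set, whereas a second probe set of like brightness gave 0.10, adjusted p = 0.708. ELK1, a transcription factor downstream of ERK, differed by -0.87 ± 0.21, adjusted p = 0.0479, CASKIN2, a scaffold protein, by -1.76 ± 0.37, adjusted p = 0.032, and HIRA, the histone chaperone that deposits H3.3, by -1.06 ± 0.21, adjusted p = 0.025. The SW780 values of CASKIN2 were 99.2 and 113 with siEGFP, 260.2 and 113 with siFFluc, and 30.1 and 27.8 with siKDM3A, with a single siFFluc array far above the rest.

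DUSP4, a phosphatase that switches off ERK, was among the genes called against each control alone. In SW780 it read 2217 and 2023 with siEGFP, 1906 and 1717 with siFFluc, and 1271 and 1229 with siKDM3A. In A549 it read 4335 and 3766 with siEGFP, 4009.5 and 3974 with siFFluc, and 4516 and 4137 with siKDM3A, and its control mean was 2.05 times that of SW780. DUSP4 fell by 0.64 ± 0.08 in SW780, its A549 change was 0.11 ± 0.08, and the difference of -0.75 ± 0.11, adjusted p = 0.00534, passed against siEGFP alone (-0.85, adjusted p = 0.0126), against siFFluc alone (-0.64, adjusted p = 0.0251) and in all 12 fits without an array. Its second probe set gave -0.14, adjusted p = 0.643. The list of 33 ERK targets and feedback genes had 3 members above and 1 below (1.8% and 0.989% of all genes), with a median of 0.07. DUSP4 was the member below, and PHLDA1, EREG and IER3 (0.36 ± 0.09) were those above.

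NRF2 targets, the detoxification and pentose phosphate genes switched on by oxidative stress, held 5 line-dependent members of 32, all with SW780 below A549, beside 0.989% of all genes in that direction. They are EPHX1, TKT, CBR1, ALDH3A1 and PGD. The count ran from 0 without SW780-siKDM3A replicate 2 to 10 without SW780-siFFluc replicate 2. Within SW780 12 members fell and 0 rose, and the list median was -0.23 against 0.04 for all genes (-0.49 against -0.21 after median scaling). TKT, transketolase of the pentose phosphate pathway, read 10839 and 10459 with siEGFP, 13628 and 12560 with siFFluc, and 8572 and 8835 with siKDM3A in SW780 and 16553 and 20976 with siEGFP, 19217 and 20300 with siFFluc, and 20156 and 21909 with siKDM3A in A549. Its SW780 siKDM3A arrays lay below all controls and the A549 groups overlapped, with a difference of -0.57 ± 0.12, adjusted p = 0.0304, and a second probe set at -0.59, adjusted p = 0.0124. ALDH3A1, an aldehyde dehydrogenase, fell in SW780 from 12916 ± 1996 to 8650.5 ± 648 (difference -0.47 ± 0.10, adjusted p = 0.0279). CBR1, a carbonyl reductase, instead rose in A549 from 3389 ± 292 to 4461 ± 20.6 (difference -0.56 ± 0.12, adjusted p = 0.0334). Against siEGFP alone 0 of the 32 were called and against siFFluc alone 8. The SW780 siFFluc arrays read higher than siEGFP arrays for EPHX1, TKT and ALDH3A1.

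Some genes of epithelial and mesenchymal identity fell in SW780. PKP3, a desmosomal plakophilin, fell in SW780 from 1084 ± 98.4 to 738 ± 50.6 and stood at 1026 ± 62.3 and 1192 ± 6.79 in A549, with a difference of -0.76 ± 0.12, adjusted p = 0.00716. SPINT2, a protease inhibitor of epithelia, differed by -0.43 ± 0.10, adjusted p = 0.0357. TGFBI, a matrix protein induced by TGF-beta, fell in SW780 from 4844 ± 498 to 3189 ± 214 while A549 held 23509 ± 264 and 21805 ± 452 (difference -0.49 ± 0.08, adjusted p = 0.0143). UPK1B, a tetraspanin of the urothelial plaque and a defining gene of bladder epithelium, fell in SW780 from 10085 ± 679 to 7387 ± 213 against 722 ± 52.5 and 729 ± 34.4 in A549 (difference -0.46 ± 0.09, adjusted p = 0.0277), and its second probe set, which has the higher mean signal on the linear scale, gave -0.17, adjusted p = 0.435. Of 32 epithelial genes 3 were line-dependent, all below, and of 26 mesenchymal genes 2, also below, beside 0.989% of all genes. The list medians were -0.02 and -0.09 against 0.04 for all genes. Against siEGFP alone 1 epithelial gene was called above and 0 below. PKP3 (-0.65, adjusted p = 0.0524), SPINT2 (-0.33, adjusted p = 0.198), TGFBI (-0.36, adjusted p = 0.116) and UPK1B (-0.45, adjusted p = 0.083) were not called against siEGFP alone. A dimmer second probe set of PKP3 gave -0.14, adjusted p = 0.836. KRT14, a basal keratin, was high in A549 at 10136 ± 581 and dim in SW780, where it went from 50.7 ± 20.6 to 15.1 ± 8.77, signals of a size at which the added 16 matters.

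Respiratory and glycolytic genes were mixed. UQCRC1 of complex III and SDHC of complex II fell in SW780 only, with differences of -0.59 ± 0.12 and -0.42 ± 0.09, whereas SDHD, another subunit of complex II, went the other way (0.49 ± 0.08). Of 45 nuclear genes of the respiratory chain these 3 were line-dependent (2.79% of all genes tested), and the list median was -0.06. GPI, a glycolytic isomerase, fell in SW780 only (-0.48 ± 0.10), and PFKFB4, which sets the level of a glycolytic activator, fell in A549 only (1.07 ± 0.23). After median scaling HIRA, PKP3, SPINT2 and SDHC, and the demethylase KDM1A described below, also passed as rising in A549 and so counted as opposite. Cholesterol synthesis held 0 line-dependent genes of 26, beside 2.79% of all genes tested.

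**Figure D3:**
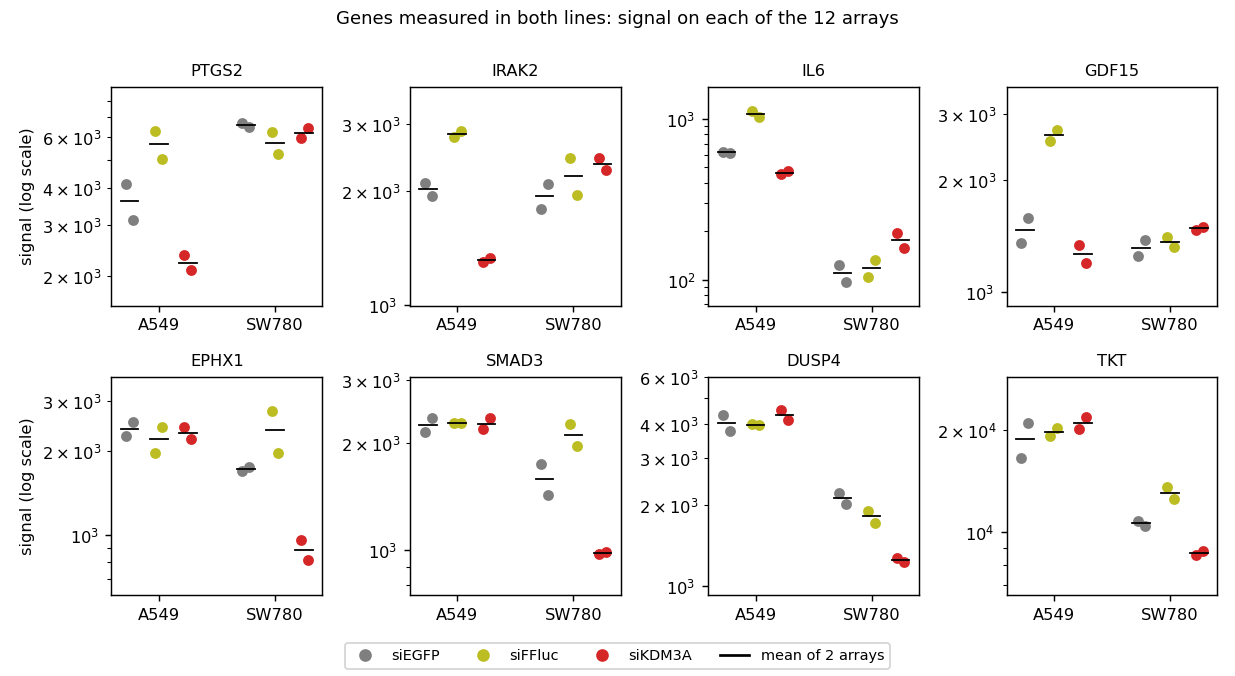
Signal on a log axis for 8 genes measured well in both lines, 1 point for each array and a bar for the mean of each pair. In the top row the red siKDM3A points drop in A549 for PTGS2, IRAK2, IL6 and GDF15, and in the bottom row they drop in SW780 for EPHX1, SMAD3, DUSP4 and TKT.

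Inflammatory genes fell in A549 more often than in SW780 among the members tested, but most did not pass the test of the difference. Of 27 NF-kB and inflammatory genes, 7 were line-dependent, all with SW780 above A549 (1.8% of all genes in that direction). The list median was 0.32 against 0.04 for all genes, and 0.06 against -0.21 after median scaling. Within A549 16 fell and 0 rose, and within SW780 7 fell and 2 rose. PTGS2, the inducible prostaglandin synthase, read 4126 and 3105 with siEGFP, 6289 and 5053 with siFFluc, and 2356 and 2099 with siKDM3A in A549. Its SW780 arrays read 6707 and 6482 with siEGFP, 6247 and 5231 with siFFluc, and 5956 and 6433 with siKDM3A. Both A549 siKDM3A arrays were lower than every control (19.9% of all genes), the SW780 groups overlapped, and control levels were of like size.

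PTGS2 fell by 1.01 ± 0.12 in A549, its SW780 change had a 95% interval of -0.24 to 0.26, and the difference was 1.02 ± 0.16, adjusted p = 0.00938. A second probe set gave 0.94, adjusted p = 0.00551. The A549 controls themselves differed, and the PTGS2 difference was 0.59, adjusted p = 0.173, against siEGFP alone and 1.45, adjusted p = 0.0041, against siFFluc alone. IRAK2, a kinase that relays signals from interleukin-1 and Toll-like receptors, read 2105 and 1948 with siEGFP, 2785 and 2889 with siFFluc, and 1298 and 1330.2 with siKDM3A in A549. Its SW780 signals were 1795 and 2090.2 with siEGFP, 2442 and 1957 with siFFluc, and 2450.4 and 2274 with siKDM3A. Its difference of 1.06 ± 0.13, adjusted p = 0.00297, passed against each control alone and in all 12 fits without an array.

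The prostaglandin E synthase gene PTGES, which acts on the product of PTGS2, fell in A549 only, with a difference of 0.51 ± 0.12, adjusted p = 0.0389. Among the chemokines, CXCL8 fell in both lines, by 1.17 in A549 and 0.43 in SW780 (difference 0.74 ± 0.14, adjusted p = 0.0246). CXCL3 fell in A549 and was dim in SW780 controls at 45.4 ± 6.36, so that its difference of 0.87 ± 0.19, adjusted p = 0.0336, describes a gene with little signal in one line. Against siEGFP alone 1 of the 27 was called, against siFFluc alone 6, and 3 after median scaling. The count ran from 2 without A549-siKDM3A replicate 2 to 8 without SW780-siFFluc replicate 1. GDF15, a stress cytokine and p53 target, read 1355 and 1579.5 with siEGFP, 2545 and 2717 with siFFluc, and 1337 and 1196 with siKDM3A in A549 and 1248 and 1380.2 with siEGFP, 1407 and 1324 with siFFluc, and 1469.9 and 1494 with siKDM3A in SW780. Its A549 siKDM3A arrays lay near the siEGFP arrays and far below the siFFluc arrays, and the difference was 0.77 ± 0.12, adjusted p = 0.00707, overall but 0.38, adjusted p = 0.222, against siEGFP alone.

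Of the 24 p53 targets and CDK inhibitors, 4 were above and 1 below (1.8% and 0.989% of all genes). Besides GDF15 these were PPM1D, a phosphatase that restrains p53 (0.46 ± 0.11, A549 only), RRM2B, a ribonucleotide reductase subunit that fell in both lines and further in A549 (0.55 ± 0.12), PMAIP1, which encodes the cell death protein NOXA and rose in SW780 only (0.49 ± 0.10), and TP53I3 (-0.33). The list median was 0.25 against 0.04 for all genes, and -0.00 against -0.21 after median scaling. Under that scaling the calls of PPM1D (0.20, adjusted p = 0.217), RRM2B (0.30, adjusted p = 0.147) and PMAIP1 (0.23, adjusted p = 0.15) ended. Leaving out 1 array gave 0 called members (without A549-siKDM3A replicate 2) to 9 (without SW780-siFFluc replicate 1). EREG, a ligand of the EGF receptor, and the keratin KRT80 fell in both lines and further in A549. EREG read 4001 and 3728 on A549 siKDM3A arrays against 7905 to 10315 on controls, and 2246 and 2275 in SW780 against 2498 to 4020.2, with a difference of 0.74 ± 0.10, adjusted p = 0.00297, that was 0.33, adjusted p = 0.197, against siEGFP alone. Its control duplexes themselves differed by line (siEGFP minus siFFluc in SW780 less the same in A549, 0.83 ± 0.11, adjusted p = 0.0243). KRT80 read 468 and 466 against 1961 to 2379 in A549 and 744 and 850 against 2206 to 2649.7 in SW780, with a difference of 0.58 ± 0.13, adjusted p = 0.0321, that was 0.33, adjusted p = 0.18, after median scaling.

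Among single genes that fell in A549 only and had control signals of at least 100 in both lines, the largest differences were those of LYNX1, ZNF843, CBR3-AS1, LOC646214 and SLC26A11. LYNX1, which modulates nicotinic acetylcholine receptors, read 129 and 209.8 with siEGFP, 139 and 140.1 with siFFluc, and 27.8 and 50.9 with siKDM3A in A549 and 146 and 114 with siEGFP, 105 and 158 with siFFluc, and 170.5 and 158 with siKDM3A in SW780, a difference of 1.94 ± 0.37, adjusted p = 0.0217. ZNF843, a zinc finger gene, went from 178 ± 42.3 to 82.7 ± 18.0 in A549 and from 128 ± 7.36 to 213 ± 48.6 in SW780 (1.62 ± 0.30, adjusted p = 0.0208). SLC26A11, an anion exchanger, read 559 and 633 with siKDM3A in A549 against 1186 to 1274 in controls, but its SW780 siKDM3A arrays disagreed with each other at 1293 and 641 (1.28 ± 0.27, adjusted p = 0.0321). CBR3-AS1 lies antisense to CBR3 and differed by 1.45 ± 0.31, adjusted p = 0.032, with a dim second probe set of the other sign. LOC646214 is a transcribed pseudogene whose signal may include that of a related gene. It differed by 1.30 ± 0.29, adjusted p = 0.0349, and by 0.11, adjusted p = 0.921, on a second probe set of like brightness. Its SW780 siKDM3A arrays, at 186 and 307, also lay below all SW780 controls (346 to 489), a change of -0.65 ± 0.20, adjusted p = 0.0549, and after median scaling it counted as falling in both lines.

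Other genes of this class had little signal in SW780. CNRIP1, which binds the cannabinoid receptor, read 376 and 328 with siEGFP, 325 and 300.3 with siFFluc, and 71 and 33 with siKDM3A in A549, and its SW780 arrays read 7.6 and 9.0 with siEGFP, 3.3 and 2.9 with siFFluc, and 3.9 and 4.7 with siKDM3A. EIF5A2, a translation elongation factor isoform, read 1348 and 1348 with siEGFP, 1523 and 1458 with siFFluc, and 336 and 314 with siKDM3A in A549 and had an SW780 control mean of 20.4 ± 10.6. On a second probe set its difference was 0.29, adjusted p = 0.808. IL24, a cytokine of the interleukin-10 family, went from 820.1 ± 209.9 to 356 ± 30.9 in A549 and read 35.2 and 26.7 with siKDM3A in SW780 against 3.3 to 25.5 in controls. Their differences of 2.33 ± 0.44, 1.59 ± 0.35 and 1.87 ± 0.39 depend on the added 16, and such genes make up 6 of the 94 that fell in A549 only. The SW780 value of IL24 was 0.74 ± 0.28, adjusted p = 0.111, which missed the threshold, with both siKDM3A arrays above all controls. SFTPB, the surfactant gene, fell in A549 only, from 183 ± 21.3 to 99.9 ± 11.0 (1.07 ± 0.25, adjusted p = 0.0404). In SW780 it stood at 127 ± 10.4 in controls and 159 ± 8.20 with siKDM3A. Its difference was not called against siEGFP alone (1.13, adjusted p = 0.0926) or siFFluc alone (1.02, adjusted p = 0.081), or after quantile normalization (0.90, adjusted p = 0.061). TBX3, a transcription factor counted here with the urothelial markers, also fell in A549 only (0.76 ± 0.18, adjusted p = 0.0452), as did MANF, a protein of the endoplasmic reticulum (0.39 ± 0.08, adjusted p = 0.0304), and the calls of TBX3, MANF and IER3 ended after median scaling.

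**Figure D4:**
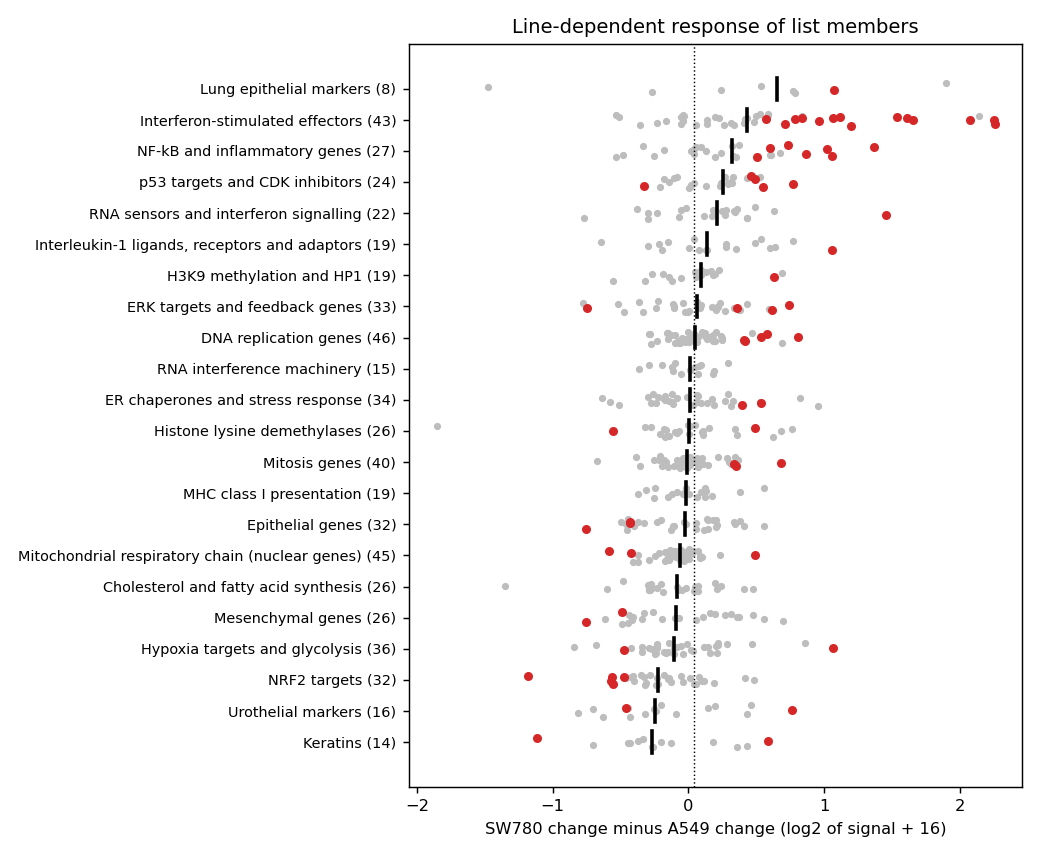
Each point is a list member placed by its SW780 change minus its A549 change in log2 units, red where the adjusted p was under 0.05, with the list median as a black bar, the number measured in brackets and the median of all genes as a dotted line. Interferon effectors hold 14 red points and NF-kB genes 7, all to the right, and NRF2 targets hold 5, all to the left, while median scaling moves the median of all genes to -0.21.

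The 54 genes that rose in A549 only were measured in both lines, with SW780 control means of at least 100 in all 54 and a bounded SW780 change, within 1.5-fold, in 53. IGFBP3, the main carrier of insulin-like growth factors, read 7653 and 8267 with siEGFP, 7672 and 7668 with siFFluc, and 12748 and 13115 with siKDM3A in A549. The SW780 arrays gave 17591 and 18019 with siEGFP, 24305 and 20960 with siFFluc, and 20674 and 19354 with siKDM3A. The A549 siKDM3A arrays lay above all controls, as the naming rule required (and as for 17.0% of all genes). SW780 stood higher still with no separation of siKDM3A from its controls. IGFBP3 rose by 0.73 ± 0.07, adjusted p = 2.51e-05, in A549, its SW780 change had a 95% interval of -0.15 to 0.14, and the difference was -0.73 ± 0.09, adjusted p = 0.00297. A second probe set gave -0.73, adjusted p = 0.0124.

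DNAAF2, which helps to assemble the dynein arms of cilia, read 1120.3 and 1006 with siEGFP, 1259.6 and 1040.2 with siFFluc, and 1877 and 2245 with siKDM3A in A549 and 1158 and 1331 with siEGFP, 1376 and 1553 with siFFluc, and 1395 and 1273 with siKDM3A in SW780, a difference of -0.90 ± 0.15, adjusted p = 0.0113. Both A549 siKDM3A arrays lay far above the controls, where the naming rule required them above, and the SW780 arrays overlapped. NSMCE3, which works with the SMC5/6 proteins in DNA repair, rose in A549 from 441 ± 142 to 942 ± 41.2 against 441 ± 117 and 535 ± 4.31 in SW780 (-0.81 ± 0.19, adjusted p = 0.0414). UCP2, a mitochondrial carrier, rose from 1212 ± 91.6 to 1878 ± 112 against 1038 ± 227 and 919.6 ± 127 (-0.78 ± 0.17, adjusted p = 0.032), and TTC32, a tetratricopeptide repeat gene, from 920.4 ± 99.4 to 1454 ± 41.7 against 684 ± 151 and 584 ± 54.3 (-0.86 ± 0.20, adjusted p = 0.0438). ESRP1, a splicing factor of epithelia, rose in A549 from 787 ± 70.5 to 962 ± 46.4 while SW780 controls stood at 6013 ± 713 (-0.43 ± 0.10, adjusted p = 0.0354). Second probe sets gave -0.33, adjusted p = 0.359, for UCP2 and -0.30, adjusted p = 0.346, for ESRP1. None of the genes named in this class, CBR1 included, was called against siEGFP alone (IGFBP3 -0.53, adjusted p = 0.0524). NSMCE3, TTC32, ESRP1 and CBR1 were not called against siFFluc alone either. Of the 54 genes, 6 were called against each control alone.

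Opposite responses were rarer: of 577 genes called in both lines, 544 moved in the same direction and 33 in opposite directions, and all 33 were line-dependent. Of these, 19 rose in SW780 and fell in A549, and 14 did the reverse. Scaling bears on the first set. After median scaling 12 of the 19 were still line-dependent but 0 were called in opposite directions, whereas all 14 of the reverse set kept their class and 95 genes then had it. That contrast is largely built in. The scaling moved the median A549 change from -0.02 to 0.12 and the median SW780 change from 0.03 to -0.07. Such a shift shrinks the changes of the first set and enlarges those of the reverse set. After quantile normalization 12 of the 19 and 12 of the 14 kept their class.

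IL6, the cytokine that drives the acute phase response, belongs to the first set. In A549 it read 626 and 616 with siEGFP, 1113 and 1026 with siFFluc, and 452 and 473 with siKDM3A. In SW780 it read 122 and 97.1 with siEGFP, 104 and 132 with siFFluc, and 194 and 158 with siKDM3A. With siKDM3A, both A549 arrays were under every A549 control and both SW780 arrays over every SW780 control (19.9% of all genes tested had both A549 arrays under the controls, and 15.4% both SW780 arrays over them), and the SW780 siKDM3A level was still well below that of A549. The naming rule for this class required that separation from the controls. IL6 fell by 0.80 ± 0.15 in A549 and rose by 0.57 ± 0.15, adjusted p = 0.024, in SW780, and the difference was 1.36 ± 0.21, adjusted p = 0.00691. After median scaling its SW780 change was 0.48 with an adjusted p of 0.0524, and against siEGFP alone the difference was 1.03, adjusted p = 0.073.

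TMA16, a ribosome-associated factor, read 539.7 and 506 with siEGFP, 747 and 801 with siFFluc, and 308 and 338 with siKDM3A in A549 and 234 and 312 with siEGFP, 251 and 176 with siFFluc, and 366 and 393 with siKDM3A in SW780. Neither line's siKDM3A arrays overlapped its controls, which the rule for naming this gene required, and the difference was 1.58 ± 0.21, adjusted p = 0.00368. NACA4P, a processed copy of the NACA gene whose signal may include that of NACA, read 6125 and 5597 with siEGFP, 5769.6 and 4480.4 with siFFluc, and 2746 and 3483 with siKDM3A in A549. In SW780 it read 2099 and 2424 with siEGFP, 1964 and 1608 with siFFluc, and 2690.3 and 2800.2 with siKDM3A, and the difference of 1.27 ± 0.17, adjusted p = 0.00368, passed against each control alone. STK17B, a kinase of the death-associated family, rose in SW780 from 514 ± 91.4 to 841 ± 7.35 and fell in A549 from 643 ± 95.5 to 454 ± 58.3 (1.19 ± 0.18, adjusted p = 0.00707), with a second probe set near 0 (-0.06, adjusted p = 0.943). MAGOHB, a core member of the exon junction complex, rose from 868 ± 146 to 1206 ± 38.7 in SW780 and fell from 1609 ± 116 to 1126 ± 25.7 in A549 (0.99 ± 0.18, adjusted p = 0.0182). In 17 of the 19 genes the A549 control mean was the higher one (89.5%, beside 55.4% of all genes).

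Smaller opposite changes were those of PHLDA1, an ERK-responsive gene (0.61 ± 0.09, adjusted p = 0.00483), NFKBIZ, a nuclear regulator of NF-kB targets such as IL6 (0.60 ± 0.11, adjusted p = 0.0187), and KDM2A, a demethylase of lysine 36 of histone H3 (0.49 ± 0.10, adjusted p = 0.0246). NFKBIZ read 1659.8 and 1672 on A549 siKDM3A arrays against 1756 to 2337 on controls, and 1021 and 1184 in SW780 against 806 to 913. Its difference was 0.38, adjusted p = 0.194, against siEGFP alone. NFKBIZ, KDM2A and SDHD lost the call of the difference after median scaling. The second probe set of KDM2A gave 0.02, adjusted p = 0.974. KDM2A was 1 of 2 line-dependent genes among 26 histone lysine demethylases, beside 2.79% of all genes tested. The other gene was KDM1A, a demethylase of lysine 4 of histone H3, which fell in SW780 from 3662 ± 442 to 2893 ± 61.2 and stood at 1802 ± 253 and 2089 ± 9.19 in A549 (-0.55 ± 0.11, adjusted p = 0.0241). Against siEGFP alone its difference was -0.28, adjusted p = 0.325, and against siFFluc alone -0.82, adjusted p = 0.00797. Its A549 siEGFP arrays (2018 and 2024) lay near the siKDM3A arrays (2096 and 2083), and siFFluc read 1592 and 1574. Of 19 genes of H3K9 methylation and HP1, MPHOSPH8, a reader of methylated H3K9, was line-dependent (0.63 ± 0.14, adjusted p = 0.0392), beside 2.79% of all genes tested. This call ended after median scaling, and a second probe set of like brightness gave 0.09, adjusted p = 0.828.

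AXL, a receptor tyrosine kinase tied to the mesenchymal state, rose in A549 and fell in SW780. Its A549 arrays read 5044 and 5166 with siEGFP, 4936 and 4713 with siFFluc, and 7143 and 6945 with siKDM3A. Its SW780 arrays read 1032 and 987 with siEGFP, 964 and 845 with siFFluc, and 798 and 799.7 with siKDM3A. The naming rule for this class required siKDM3A arrays beyond all controls in both lines. The groups did not overlap in either line, and the difference was -0.76 ± 0.09, adjusted p = 0.00297, called against each control alone and in all 12 fits without an array. On a second, dimmer probe set AXL gave -0.63, adjusted p = 0.422. HIPK3, a nuclear kinase, had like control levels, at 2737 ± 210.2 in A549 and 2759 ± 216 in SW780, and moved to 4067 ± 31.3 and 2239 ± 82.7 (-0.87 ± 0.11, adjusted p = 0.00297). Its second probe set, far dimmer at a mean signal of 228, gave -0.08, adjusted p = 0.923.

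TNFRSF1A, the main receptor of TNF and an input to NF-kB, read 4179 and 4106 with siEGFP, 4181 and 5107 with siFFluc, and 5572 and 5596 with siKDM3A in A549 and 2130 and 2139 with siEGFP, 2308 and 1935 with siFFluc, and 1569 and 1545 with siKDM3A in SW780 (difference -0.79 ± 0.12, adjusted p = 0.00691). ACAA2, the last enzyme of mitochondrial beta-oxidation, rose in A549 to 1982 and 2180.3 against 1564 to 1697 in controls and fell in SW780 to 379 and 337 against 474 to 553 (-0.88 ± 0.13, adjusted p = 0.00512). SESN3, a sestrin that restrains mTORC1, went from 1203 ± 168 to 1806 ± 63.6 in A549 and from 188 ± 34.0 to 109 ± 23.8 in SW780 (-1.29 ± 0.24, adjusted p = 0.0211). A second probe set of SESN3 gave -0.27, adjusted p = 0.723. BMP7, a secreted ligand of the TGF-beta family chosen here after its values were seen, had the largest difference of this set, from 48.2 to 119.7 in A549 and from 67.2 to 17.9 in SW780 (-2.41 ± 0.42, adjusted p = 0.0147), at signals close to the filter.

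**Figure D5:**
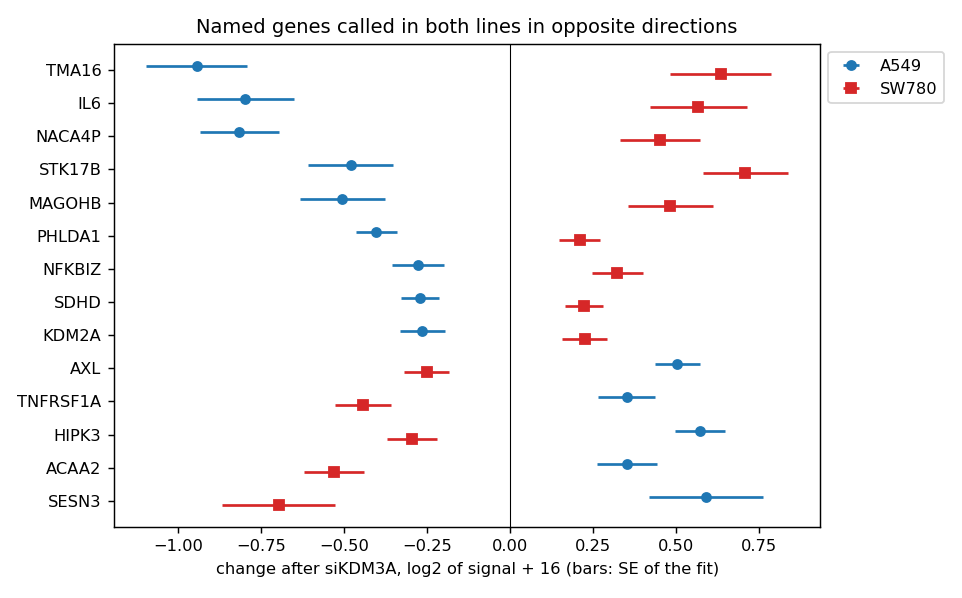
Changes after siKDM3A in log2 units of signal + 16, with SE bars, for the 14 named genes called in opposite directions, A549 as blue circles and SW780 as red squares. The upper 9 genes fell in A549 and rose in SW780, calls that median scaling ended in at least 1 line, and the lower 5 did the reverse under both scalings. Median scaling shifts A549 changes up and SW780 changes down, which enlarges both changes of the lower 5, so that contrast is largely built in.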

How the data were processed

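The authors deposited 1 table of signal intensity on a linear scale for 12 arrays, and the submitters' processing notes name MAS5 (version not given in the sources used here). On each array the trimmed mean (2% off each end) was the same. The deposited intensities were taken to log2(signal + 16). Of 54675 probe sets, 62 controls were removed, and of the other 54613, 41091 had 1 gene symbol, 1801 several and 11721 none. Symbols came from the platform annotation of 2016, and 41037 probe sets matched RefSeq. Probe sets under the 40th percentile of mean signal (29.6) were dropped, which left 32768 probe sets and 14057 genes, each at its brightest probe set by mean log2 value (7082 had several).

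Changes and their difference were fitted over all 12 arrays with limma 3.58.1 in R 4.3.3 (trended prior variance), with Benjamini-Hochberg adjustment over all genes. The procedure was tested on simulated data. No p-value was adjusted over a list alone. The genes and lists were chosen with earlier results of these data known. Named are KDM3A, the 5 largest differences of each direction class with control signals of at least 100 in both lines and siKDM3A arrays beyond all controls, the 3 largest whose other line was under 100, and up to 4 called genes of each list. For genes named by class, separation from the controls in a responding line was thus fixed by the choice. Other called list members are named where a list is enumerated, and BMP7, HERC6, ISG15, IFIT2 and IFIT3 were chosen after their values were seen. Same-numbered arrays did not deviate together (correlations -0.03 to 0.01), so the numbers were not used as pairs. Precision is limited by the number of arrays. Raw scans were not used here. Figures were drawn with matplotlib 3.10.9.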

Additional observations from a re-analysis of the deposited data

Results flagged for a closer look

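The test of the difference between the lines picked out 392 genes, of which 76 are named by rule. Each value below is the SW780 change minus the A549 change on the log2(signal + 16) scale. The genes that rose in SW780 only had differences as follows: IFI44L (2.26), IFI27 (2.25), MX1 (1.66), MX2 (1.54), IRF9 (1.46), PIP4P2 (1.36), ASPH (1.26), MAD2L1 (0.68), MPHOSPH8 (0.63), ORC6 (0.58), XBP1 (0.53), PMAIP1 (0.49), RPA2 (0.42) and TOP2A (0.34). Where genes fell in SW780 only, the differences were those of CASKIN2 (-1.76), EPHX1 (-1.18), KRT14 (-1.11), HIRA (-1.06), SMAD3 (-0.88), ELK1 (-0.87), PKP3 (-0.76), DUSP4 (-0.75), UQCRC1 (-0.59), TKT (-0.57), KDM1A (-0.55), TGFBI (-0.49), GPI (-0.48), ALDH3A1 (-0.47), UPK1B (-0.46), SPINT2 (-0.43) and SDHC (-0.42). The genes that rose in A549 only had differences as follows: DNAAF2 (-0.90), TTC32 (-0.86), NSMCE3 (-0.81), UCP2 (-0.78), IGFBP3 (-0.73), CBR1 (-0.56) and ESRP1 (-0.43). Where genes fell in A549 only, the differences were those of CNRIP1 (2.33), LYNX1 (1.94), IL24 (1.87), ZNF843 (1.62), EIF5A2 (1.59), CBR3-AS1 (1.45), LOC646214 (1.30), SLC26A11 (1.28), SFTPB (1.07), PFKFB4 (1.07), IRAK2 (1.06), PTGS2 (1.02), GINS3 (0.81), GDF15 (0.77), TBX3 (0.76), PPM1D (0.46), MANF (0.39) and IER3 (0.36). The genes that rose in SW780 and fell in A549 had differences as follows: TMA16 (1.58), IL6 (1.36), NACA4P (1.27), STK17B (1.19), MAGOHB (0.99), PHLDA1 (0.61), NFKBIZ (0.60), SDHD (0.49) and KDM2A (0.49). Where genes fell in SW780 and rose in A549, the differences were those of SESN3 (-1.29), ACAA2 (-0.88), HIPK3 (-0.87), TNFRSF1A (-0.79) and AXL (-0.76). The genes called higher in both lines had differences as follows: IFIT1 (1.61), POLE3 (0.53) and HMMR (0.35). Where genes fell in both lines, the differences were those of EREG (0.74), KRT80 (0.58) and RRM2B (0.55).

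Of 154 sets of 4 control arrays for these genes, 7 had an array apart from the other 3, by a gap above 0.829 of the whole range. About 1 in 20 sets is picked out by chance alone. CASKIN2 read 260.2 on SW780 siFFluc replicate 1, against 99.2 to 113.4 on the others. GPI read 11409 on A549 siEGFP replicate 1, against 12036.2 to 12162.0 on the others. IFI27 read 5506.1 on A549 siEGFP replicate 2, against 5319.3 to 5343.4 on the others. IGFBP3 read 8267.1 on A549 siEGFP replicate 2, against 7653.3 to 7671.7 on the others. LOC646214 read 489.0 on SW780 siFFluc replicate 1, against 345.8 to 368.1 on the others. LYNX1 read 209.8 on A549 siEGFP replicate 2, against 128.9 to 140.1 on the others. TNFRSF1A read 5107.4 on A549 siFFluc replicate 2, against 4105.8 to 4181.2 on the others.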

How the results depend on the processing

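The number of line-dependent genes depended on the processing. Without a filter on dim probe sets it was 216 (134 with SW780 above A549, 82 below), and after median scaling it was 1941 (116 above, 1825 below), with 145 list members in place of 64. With siEGFP as the only control it was 80 (47 above, 33 below, 16 list members). With the replicate block it was 250 (147 above, 103 below). With one prior variance it was 88 (65 above, 23 below, 17 list members), and on second probe sets 131 (91 above, 40 below). Counts stayed within 1.5 times for a pseudocount of 1 (346) or 64 (425), a filter at 100 (463), quantile normalization (444) and siFFluc as the only control (369). Leaving out 1 array gave 43 to 954 genes (28 to 499 above, 15 to 455 below) and 13 to 113 list members, the lowest without A549-siKDM3A replicate 2 and the highest without SW780-siFFluc replicate 2. On a second probe set the sign turned for ACAA2 (0.39), CASKIN2 (0.37), CBR3-AS1 (-0.86), ELK1 (0.37), GINS3 (-0.0772), HMMR (-0.12), PHLDA1 (-0.0462), PMAIP1 (-0.0488), SMAD3 (0.10) and STK17B (-0.0613), none of them called there. Another 23 named genes kept their sign on a second probe set without a call, and 5 kept the call. No named gene turned its sign under the other settings, apart from KDM3A, which was not called, after median scaling (-0.14). The cause of these shifts was not tested.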
